A study of Mus musculus with 12 samples.

Results

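The endoplasmic reticulum (ER) stress and integrated stress response genes Hspa5, Xbp1, Dnajb9, Herpud1, Atf4, Atf3, Ddit3, Trib3, Chac1 and Asns were examined in mouse liver. These 10 genes were chosen by name from the known pathways, with earlier results of these data known. The count tables held 47729 genes, and all 10 passed the filter on low counts that left 16823 genes for testing. Liver RNA-seq was available for 12 C57BL/6 mice in 3 groups of 4. Healthy mice (labelled Naive_vehicle) received vehicle. STAM-vehicle mice (STAM_vehicle), which were male, were injected with streptozotocin, which destroys pancreatic islet cells, at day 2 of age, were fed a high fat diet from week 4, and received vehicle. STAM-I-BET151 mice (STAM_treated) had the same injection and diet and received I-BET151, an inhibitor of the BET family of bromodomain proteins, orally at 10 mg/kg once a day from week 6 to week 9. STAM is a model of non-alcoholic steatohepatitis (NASH). No group received streptozotocin or the diet alone, so these cannot be told apart in the STAM mice, and the vehicle was methylcellulose whereas I-BET151 was suspended in hydroxypropyl methylcellulose with Tween 80.

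The ER folds secreted and membrane proteins, and the liver, which secretes most plasma proteins, carries a heavy folding load. When unfolded proteins accumulate, the sensors IRE1, ATF6 and PERK start the unfolded protein response: IRE1 splices Xbp1 mRNA and ATF6 is cleaved to a transcription factor, and both raise ER chaperones and degradation factors, while PERK phosphorylates eIF2 alpha, which slows translation in general but favours translation of ATF4. Phosphorylation of eIF2 alpha by other kinases, which sense amino acid shortage, haem shortage or double-stranded RNA, feeds into the same ATF4 branch, called the integrated stress response. Gene counts measure mRNA, so neither Xbp1 splicing nor ATF4 protein was measured here.

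The start regions of the 10 genes were searched for 5 short motifs on both strands, in windows of 250 bases before to 50 bases after the RefSeq transcription start (GRCm38.p6), and all 10 genes had a window. The ER stress element ERSE, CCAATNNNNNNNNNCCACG, was found in Hspa5 (bases -65 to -47 from the start) and in 0.119% of the 32851 promoters searched. The element ERSE-II, which is ATTGG, any 1 base and CCACG, was found in Herpud1 (-52 to -42) and in 0.037% of promoters. The core of the C/EBP-ATF composite site, TGATGNAA, was found in 5 of the 10 genes, Herpud1 (-112 to -105), Atf3 (-110 to -103), Chac1 (-193 to -186), Asns (-23 to -16) and Trib3 (15 to 22 after the start), and in 3.969% of promoters. The element TGACGTGG, held by 0.676% of promoters, and the cAMP response element TGACGTCA, held by 1.79%, had no match in the 10 windows. Xbp1, Dnajb9, Atf4 and Ddit3 held none of the 5 sets of letters. A match is a description of the letters and not evidence of binding. The windows with a match are printed 5′ to 3′ on the gene's strand, because they show where these letters lie; the C/EBP-ATF core was in both branches, in Herpud1 as well as in 4 of the 6 ATF4-branch genes. Capitals mark the matched letters, which read as the reverse complement where the match lay on the other strand. The stretches are chr2:34771840-34772089 (plus strand) for Hspa5, chr8:94386179-94386428 (plus) for Herpud1, chr1:191183334-191183583 (minus) for Atf3, chr2:119350992-119351241 (plus) for Chac1 and chr6:7693210-7693459 (minus) for Asns, each the 250 bases before the start, and chr2:152344031-152344060 (minus) for the first 30 transcribed bases of Trib3.
Hspa5: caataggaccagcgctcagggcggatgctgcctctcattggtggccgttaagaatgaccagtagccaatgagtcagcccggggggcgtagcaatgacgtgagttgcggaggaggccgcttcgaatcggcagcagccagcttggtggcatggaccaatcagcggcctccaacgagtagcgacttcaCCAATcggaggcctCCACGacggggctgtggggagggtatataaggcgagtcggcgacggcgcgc
Herpud1: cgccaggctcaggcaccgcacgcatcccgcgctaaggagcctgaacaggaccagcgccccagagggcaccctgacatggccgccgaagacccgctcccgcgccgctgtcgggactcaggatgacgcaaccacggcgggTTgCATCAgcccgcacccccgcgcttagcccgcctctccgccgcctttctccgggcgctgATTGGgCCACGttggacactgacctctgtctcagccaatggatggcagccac
Atf3: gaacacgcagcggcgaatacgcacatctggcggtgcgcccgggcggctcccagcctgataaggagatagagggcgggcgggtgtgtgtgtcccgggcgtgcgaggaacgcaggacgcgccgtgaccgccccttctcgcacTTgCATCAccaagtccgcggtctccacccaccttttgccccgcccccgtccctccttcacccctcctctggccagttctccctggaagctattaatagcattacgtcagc
Chac1: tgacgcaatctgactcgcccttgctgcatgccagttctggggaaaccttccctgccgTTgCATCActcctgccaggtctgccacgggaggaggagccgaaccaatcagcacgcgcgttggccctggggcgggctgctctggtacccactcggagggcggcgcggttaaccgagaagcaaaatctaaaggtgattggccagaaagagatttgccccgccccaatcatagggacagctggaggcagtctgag
Asns: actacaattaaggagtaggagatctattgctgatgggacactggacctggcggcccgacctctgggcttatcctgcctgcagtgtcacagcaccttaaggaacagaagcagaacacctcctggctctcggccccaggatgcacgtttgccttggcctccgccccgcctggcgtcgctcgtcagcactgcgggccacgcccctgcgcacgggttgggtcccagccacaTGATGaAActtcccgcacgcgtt
Trib3: agattagctcaggtTTaCATCAgccgggcg

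Total counts per mouse ranged from 34711229 to 53365596. One library stood apart: STAM-I-BET151 mouse 3 had a normalization factor of 1.61, against 0.770 to 1.11 in the other 11 mice, and its 10 most abundant genes took 7.95% of counts, against 13.5% to 18.0%. Mitochondrial transcripts took 2.71% of its counts, against 4.51% to 7.30%. A list of 6 nuclear RNAs summed to 5023 CPM (counts scaled to a common library size, adjusted by the normalization factor) in that mouse, against 1215 to 1624 CPM in the other 3 STAM-I-BET151 mice, and a list of 5 hepatocyte markers summed to 16993 CPM, against 62443 to 76543 CPM. Results that rest on this mouse are therefore given with and without it. The replicates of each group differed by more than counting noise, with a chi-square per degree of freedom of 30.2 or more for every pair of mice in a group.

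Levels were compared between genes per kilobase of exon. In healthy liver Herpud1, which helps the ER-associated degradation of misfolded proteins, had the highest level at 290 ± 63.0 CPM per kb (SD, n = 4). Hspa5, the ER chaperone BiP, followed at 170 ± 32.6 CPM per kb, then Xbp1 at 52.4 ± 1.44, Atf4 at 37.6 ± 1.49 and Dnajb9 at 23.0 ± 2.67 CPM per kb, and the ranges of these neighbours over the mice did not overlap. Trib3 (6.69 ± 0.672 CPM per kb) and Ddit3 (6.49 ± 0.50) overlapped each other and lay below Dnajb9. Asns (1.08 ± 0.516), Chac1 (0.877 ± 0.251) and Atf3 (0.469 ± 0.181) were lowest, and each overlapped its neighbour. In STAM-vehicle liver the order was led by Hspa5 (227 ± 4.17 CPM per kb) and Herpud1 (217 ± 45.2), whose ranges overlapped. In STAM-I-BET151 liver Herpud1 (165 ± 30.1 CPM per kb) and Hspa5 (152 ± 59.2) were again the highest and Atf3 (2.26 ± 0.698) the lowest, with Chac1 (5.87 ± 4.93) overlapping both Ddit3 (8.10 ± 3.74) and Asns (4.81 ± 1.49). By group means Herpud1 and Hspa5 were thus the most abundant of the 10 in all 3 groups, and Atf3, Chac1 and Asns the scarcest. STAM-I-BET151 mouse 4 departed from this order, with Chac1 (11.8 CPM per kb) and Asns (6.72) above Ddit3 (4.48). The ranges of Hspa5 and Xbp1 overlapped in that group, but only between mice. Mouse 3 had 65.8 CPM per kb of Hspa5 and 48.0 of Xbp1, and mouse 1 had 189 and 89.5 CPM per kb.

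**Figure D1:**
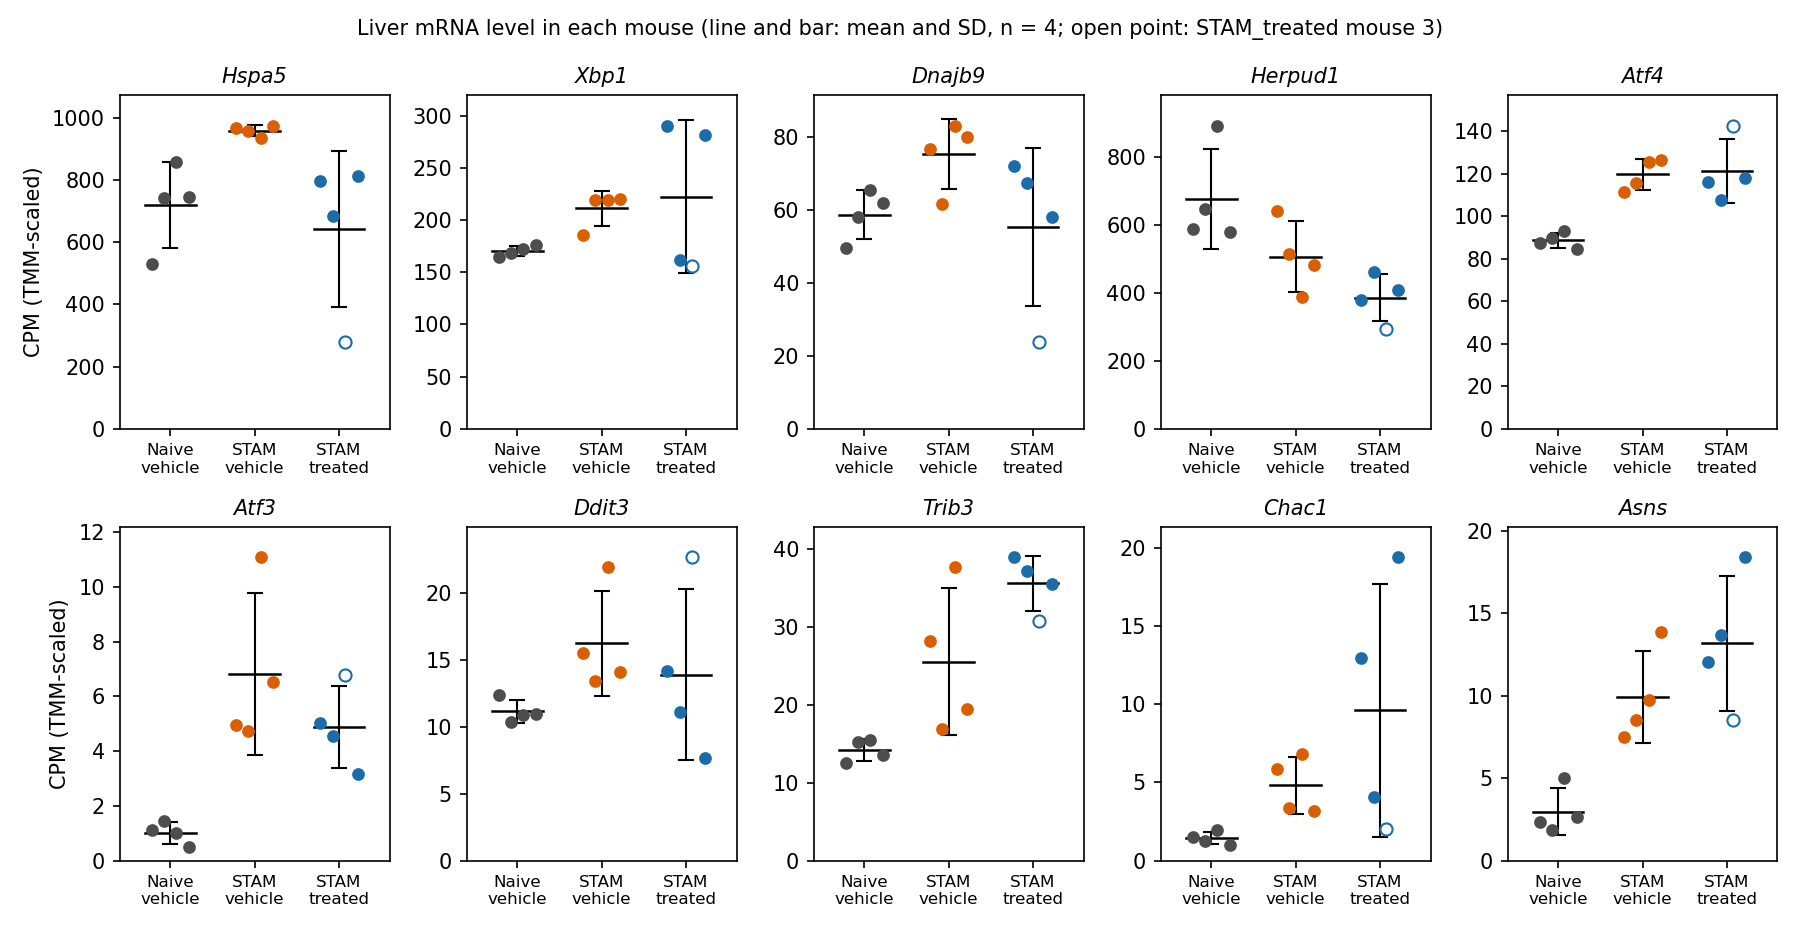
Level of each of the 10 genes in every mouse, in CPM on a linear axis from 0, by group (grey Naive_vehicle, orange STAM_vehicle, blue STAM_treated, n = 4 each); the line and bar are the mean and SD and the open point is STAM_treated mouse 3. Hspa5 was between 936 and 976 CPM in the 4 STAM_vehicle mice and at 278 CPM in STAM_treated mouse 3.

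The first comparison, STAM-vehicle against healthy, addressed what the disease model does to these genes. Of the 10 genes, 4 rose in STAM-vehicle liver at an adjusted p of at most 0.05 (edgeR's quasi-likelihood test), namely Atf4, Atf3, Trib3 and Asns, all of the ATF4 branch, and none fell. Over all genes tested, 5.72% rose and 1.38% fell. The median log2 fold change of the 10 genes was 0.49, against 0.01 over all genes tested. In bulk liver, fewer cells of a type and less RNA per cell cannot be told apart.

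In the chaperone and degradation branch no gene passed the test. Hspa5 was at 529, 743, 860 and 744 CPM in the healthy mice and at 969, 959, 936 and 976 CPM in the STAM-vehicle mice. Every STAM-vehicle mouse lay above every healthy mouse, and the STAM-vehicle mice were far closer together. The log2 fold change of Hspa5 was 0.42 (SE 0.28, adjusted p = 0.418). Xbp1, the transcription factor made active by IRE1, was at 165, 169, 172 and 176 CPM in healthy mice and at 186, 220, 219 and 220 CPM in STAM-vehicle mice. These groups did not overlap either, and the log2 fold change was 0.31 (SE 0.20, adjusted p = 0.393). Dnajb9, an ER co-chaperone of BiP, was at 49.6, 58.0, 65.5 and 61.8 CPM in healthy mice and at 76.8, 61.6, 83.2 and 79.9 CPM in STAM-vehicle mice. One STAM-vehicle mouse fell within the healthy range, and the log2 fold change was 0.36 (SE 0.26, adjusted p = 0.446). Herpud1 was at 588, 647, 893 and 581 CPM in healthy mice and at 642, 516, 387 and 481 CPM in STAM-vehicle mice. Herpud1 was the single gene of the 10 with a negative value, at -0.42 (SE 0.21, adjusted p = 0.271), and its groups overlapped.

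In the ATF4 branch every STAM-vehicle mouse lay above every healthy mouse for all 6 genes, as in 14.2% of all genes tested. Atf4, the central transcription factor of the integrated stress response, was at 87.5, 89.7, 93.0 and 84.7 CPM in healthy mice and at 112, 116, 125 and 126 CPM in STAM-vehicle mice. Its rise was small and even, 1.35-fold (log2 0.43, SE 0.12, adjusted p = 0.0469). Atf3, a stress-induced transcription factor of the same family, was at 1.11, 1.43, 1.02 and 0.489 CPM in healthy mice and at 4.95, 4.72, 11.1 and 6.53 CPM in STAM-vehicle mice. Atf3 had the largest fold change of the 10 genes, 6.71-fold (log2 2.75, SE 0.36, adjusted p = 0.00079). Healthy mice had 17 to 54 counts of Atf3, so its level in those mice rests on few reads. Asns, the enzyme that makes asparagine, was at 2.34, 1.85, 5.03 and 2.64 CPM in healthy mice and at 7.50, 8.49, 9.74 and 13.8 CPM in STAM-vehicle mice. The rise of Asns was 3.35-fold (log2 1.74, SE 0.31, adjusted p = 0.00527).

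Trib3, a pseudokinase that feeds back on ATF4 and binds AKT, was at 12.5, 15.3, 15.5 and 13.6 CPM in healthy mice and at 28.2, 16.8, 37.7 and 19.4 CPM in STAM-vehicle mice. It rose 1.80-fold (log2 0.85, SE 0.21, adjusted p = 0.0279), with STAM-vehicle mice 2 and 4 only just above the healthy range. Chac1, which degrades glutathione, was at 1.49, 1.27, 1.98 and 1.01 CPM in healthy mice and at 5.86, 3.35, 6.82 and 3.18 CPM in STAM-vehicle mice. The fold change of Chac1 was as large as that of Asns (log2 1.74) but its error was larger (SE 0.57) and its adjusted p was 0.0828. Ddit3, the transcription factor CHOP, was at 12.3, 10.3, 10.9 and 11.0 CPM in healthy mice and at 15.5, 13.4, 21.9 and 14.1 CPM in STAM-vehicle mice, a log2 fold change of 0.54 (SE 0.26, adjusted p = 0.247). The exons of Ddit3 share 68 bases with Mars and 13 with Gm4189 on the opposite strand, and those of Dnajb9 share 14 with Mir5627. The strand setting of the counting is not given in the sources used here, so reads of these overlaps could belong to either gene.

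Counted by the mice alone, 8 of the 10 genes had every STAM-vehicle mouse above every healthy mouse and none the reverse, against 14.2% and 12.2% of all genes tested. DESeq2 also called 4 of the 10 genes, all higher, against 7.56% higher and 2.67% lower of all genes with an adjusted p. Without STAM-I-BET151 mouse 3, which enters this comparison through the shared estimate of the spread, 5 genes rose, against 12% of all genes in that fit, Chac1 being the fifth (adjusted p = 0.0149). Atf3 and Asns passed with each of the 12 mice left out in turn. Atf4 passed in 2 of these 12 fits, those without STAM-I-BET151 mouse 2 or 3 (adjusted p from 0.00401 to 0.141 over the 12). Trib3 passed in 6 of 12 and missed without any 1 of the 4 healthy mice or without STAM-vehicle mouse 1 or 3 (0.0101 to 0.0863). With sequencing lane as a covariate none of the 10 genes passed (edgeR, lowest adjusted p = 0.0603; 3 at an unadjusted p under 0.05), against 0.22% of all genes, and 9 of the 10 log2 fold changes were positive. Healthy mouse 1 and STAM-vehicle mouse 4 had the same lane number in the file labels. In that pair 9 of the 10 genes were higher in the STAM mouse, with a median log2 difference of 0.66. Lane 8 held only healthy mice 2 and 3, and lane 4 only STAM-vehicle mouse 2, so lane and group were partly confounded.

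**Figure D2:**
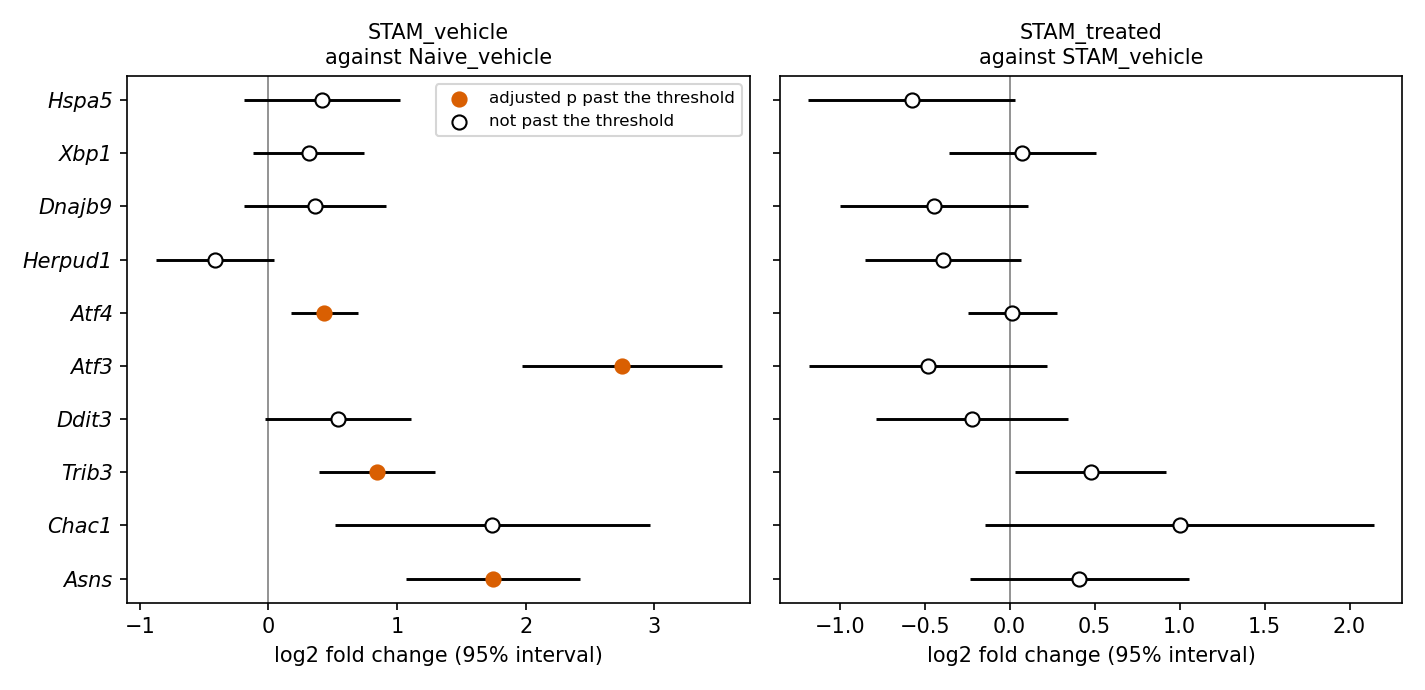
Log2 fold change of each gene with its 95% interval (edgeR), STAM_vehicle against Naive_vehicle on the left (threshold 0.05) and STAM_treated against STAM_vehicle on the right (threshold 0.1); filled points passed the threshold. Atf4, Atf3, Trib3 and Asns passed on the left and no gene on the right, and the axes of the 2 panels differ.

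The wider pathways were read from 9 lists of 126 genes with no overlap with the 10, of which 125 were tested. The lists were chosen with earlier results of these data known, so their shares beside those of all genes are a description and not a test. In STAM-vehicle liver 14 of the 125 (11.2%) rose and none fell (edgeR), against 5.72% and 1.38% of all genes tested. An unadjusted p under 0.05 was reached by 40 of the 125 (32%), against 22.3% of all genes. DESeq2 called 19 higher and 1 lower, against 7.56% and 2.67% of all genes with an adjusted p. The median log2 fold change was 0.18, against 0.01 for all genes. Without STAM-I-BET151 mouse 3, 34 of the 125 (27.2%) rose and 5 (4.0%) fell, against 12% and 10.3% of all genes in that fit.

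Targets of ATF4 in amino acid synthesis and transport held the most calls, 5 of 18 tested (27.8%), with a median log2 fold change of 0.49. Without STAM-I-BET151 mouse 3, 7 of the 18 rose and 1 fell, against 12% and 10.3% of all genes in that fit. Psat1, an enzyme of serine synthesis, rose from 0.402 ± 0.0690 to 3.82 ± 2.91 CPM (SD, n = 4; log2 3.24, SE 0.49, adjusted p = 0.00187). Slc7a11, the cystine transporter, rose from 0.246 ± 0.120 to 1.58 ± 0.506 CPM (log2 2.66, adjusted p = 0.00139). Mthfd2, a mitochondrial folate enzyme (log2 1.30, adjusted p = 0.00505), Aldh18a1, an enzyme of proline synthesis (1.46, 0.0104), and Slc7a1, a cationic amino acid transporter (1.06, 0.0350), made up the 5. Like Atf3, these genes were scarce in healthy liver, with means of at most 1.12 CPM.

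Among 13 targets in growth control and feedback 2 rose (15.4%), Stc2, a secreted glycoprotein (log2 1.77, adjusted p = 0.0170), and Gadd45a, a growth arrest gene (1.73, 0.00564), and the median was 0.67. Among 9 further transcription factors of the response 1 rose (11.1%), Nupr1, a stress-induced chromatin protein, from 0.958 ± 0.206 to 5.01 ± 3.04 CPM (log2 2.37, adjusted p = 0.00241). Among 12 genes of ER stress and cell death 2 rose (16.7%), Tnfrsf10b, the death receptor for TRAIL, from 0.510 ± 0.0864 to 2.08 ± 0.479 CPM (2.02, 0.00103), and Bax, a pro-apoptotic BCL2 family protein, from 12.6 ± 1.11 to 20.8 ± 2.58 CPM (0.72, 0.00626). None of 12 aminoacyl-tRNA synthetases passed (median 0.05; 4 at an unadjusted p under 0.05, and 0 by DESeq2), the lowest p belonging to Yars (0.31, 0.0829) and Cars (0.38, 0.0951). Without STAM-I-BET151 mouse 3, 4 of these 12 rose, Yars, Wars, Sars and Cars, and 1 fell, Tars. None of 15 genes of the eIF2 alpha kinases, phosphatases and eIF2B passed (median -0.14; 2 at an unadjusted p under 0.05, and 0 by DESeq2), the lowest p belonging to Eif2b1 (-0.27, 0.144) and Ppp1r15a (0.25, 0.174), and 2 fell without that mouse.

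In the chaperone branch, 2 of 18 ER chaperones and folding enzymes rose (11.1%), with a median of 0.25. Hyou1, a large ER chaperone, rose from 162 ± 16.1 to 251 ± 15.4 CPM (log2 0.63, SE 0.17, adjusted p = 0.0427). Creld2, a secreted ER stress gene, rose from 33.3 ± 3.52 to 57.4 ± 2.35 CPM (0.78, SE 0.16, adjusted p = 0.0104). Of 20 genes of ER-associated degradation and translocation 1 passed, Derl3, a component of the degradation channel, from 1.76 ± 0.437 to 9.43 ± 2.5 CPM (2.43, adjusted p = 0.00119), and the median was 0.15. That is 5.0% of the list, no more than the 5.72% of all genes that rose. Of 9 sensors and their processing enzymes 1 rose (11.1%), Creb3l1, an ER-anchored transcription factor (0.94, adjusted p = 0.0293). Without STAM-I-BET151 mouse 3 the calls in these 3 lists went to 5 higher and 1 lower, 6 higher and 3 higher, while the share of all genes that rose went to 12%.

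**Figure D3:**
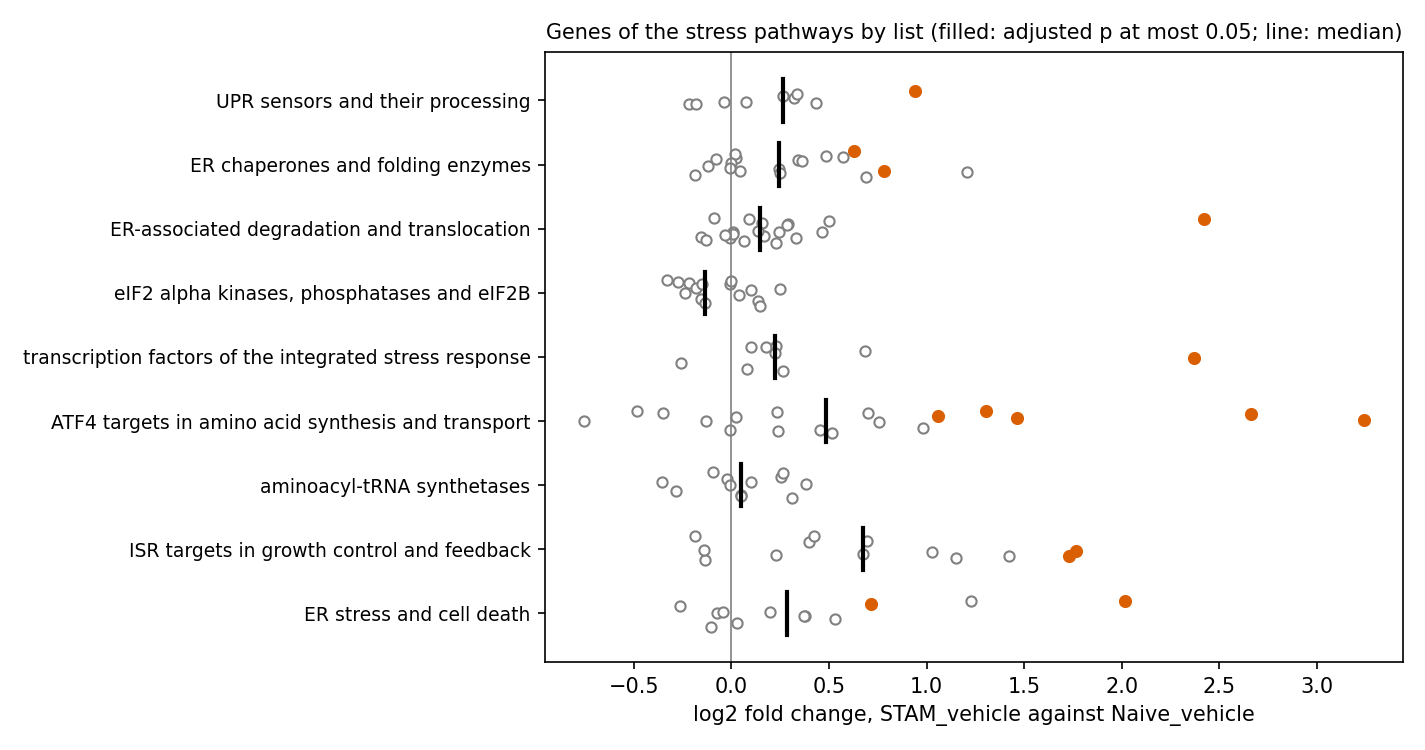
Log2 fold change, STAM_vehicle against Naive_vehicle, of each tested gene of the 9 lists; filled points passed an adjusted p of 0.05 and the black line is the list's median. The median was highest in the targets in growth control and feedback, at 0.67, and lowest in the eIF2 list, at -0.14.

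Markers of some cell types moved with the same comparison. Of 5 macrophage markers 4 rose, and their sum went from 129 to 193 CPM in healthy mice to 226 to 418 CPM in STAM-vehicle mice. The sum of 5 hepatocyte markers was 92268 to 109966 CPM in healthy mice and 42034 to 65484 CPM in STAM-vehicle mice, with none of the 5 past the test (edgeR). The share of these cells in the rises of Atf3 or the other genes was not tested. Derl3 is also abundant in plasma cells and pancreatic acinar cells, and is itself 1 of the 6 plasma cell markers. Of the other 5, Tnfrsf17 had at most 1 count in any mouse, Jchain was at 0.407 to 0.805 CPM in healthy and 0.594 to 2.36 CPM in STAM-vehicle mice, Mzb1 at 0.320 to 0.532 and 0.339 to 0.721 CPM, Pou2af1 at 0.238 to 0.468 and 0.240 to 0.754 CPM, and Sdc1, which hepatocytes also express, at 253 to 271 and 136 to 187 CPM. None of the 4 of these that were tested passed (edgeR). Of 5 acinar markers, Pnlip, Cel, Ctrb1 and Cpa1 had at most 4 counts in any mouse, and Cela1 was at 3.65 to 5.41 CPM in healthy and 3.34 to 4.78 CPM in STAM-vehicle mice. The part of these cells in the rise of Derl3 was not tested. Of 4 T cell markers 1 rose, and their sum was 0.977 to 2.83 CPM in healthy and 2.51 to 3.82 CPM in STAM-vehicle mice. No tested marker of B cells, neutrophils, endothelium, stellate cells or cholangiocytes passed. The neutrophil sum was 0.431 to 0.830 CPM in healthy and 1.51 to 5.90 CPM in STAM-vehicle mice.

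The second comparison, STAM-I-BET151 against STAM-vehicle, asked whether the inhibitor moved these genes in diseased liver. None of the 10 genes passed an adjusted p of 0.1 with edgeR, 1 had an unadjusted p under 0.05, and DESeq2 called none. Over all genes tested 0.351% passed with edgeR, and DESeq2 called 1.48% of all genes with an adjusted p. The median log2 fold change was -0.10 for the 10 genes and 0.02 for all genes, with 5 genes positive and 5 negative. Without STAM-I-BET151 mouse 3, 4 were positive and 6 negative, and none passed. For several genes the intervals were wide, and a missing call does not show equal levels.

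In the chaperone and degradation branch Hspa5 was at 799, 683, 278 and 814 CPM under I-BET151. All 4 mice lay below the 4 STAM-vehicle mice, the 1 such case among the 10 genes, while 5.04% of all genes tested had groups that did not overlap in either direction. The log2 fold change of Hspa5 was -0.58 (95% interval -1.19 to 0.03, adjusted p = 0.606), and -0.32 (adjusted p = 0.307) without mouse 3. Dnajb9 was at 72.0, 67.4, 23.8 and 58.1 CPM, a log2 fold change of -0.45 (-1.0 to 0.11, adjusted p = 0.671), and -0.19 without mouse 3. Herpud1 was at 378, 463, 295 and 408 CPM, a log2 fold change of -0.39 (-0.85 to 0.07, adjusted p = 0.648). Its mice overlapped those of the STAM-vehicle group. Xbp1 was split within the group, at 291 and 281 CPM in mice 1 and 4 and at 162 and 156 CPM in mice 2 and 3. The STAM-vehicle values of Xbp1 lay between these pairs, and the log2 fold change was 0.08 (-0.36 to 0.51, adjusted p = 0.960). Without mouse 3 the log2 fold change was -0.27 for Herpud1 (adjusted p = 0.471) and 0.22 for Xbp1 (adjusted p = 0.521).

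In the ATF4 branch Atf4 was at 116, 107, 143 and 118 CPM under I-BET151, a log2 fold change of 0.02 with the narrowest interval of the 10 genes (-0.24 to 0.28, adjusted p = 0.988). Atf3 was at 5.02, 4.55, 6.79 and 3.15 CPM (-0.48, -1.18 to 0.22, adjusted p = 0.748). Both groups overlapped for these genes. Trib3 was at 38.9, 37.1, 30.7 and 35.5 CPM, each above at least 3 of the 4 STAM-vehicle mice, and had the lowest p of the 10 genes (log2 0.48, 0.03 to 0.92, unadjusted p = 0.0367, adjusted p = 0.535). Chac1 was the most uneven gene, at 13.0, 4.06, 2.01 and 19.4 CPM, with mice 1 and 4 above every STAM-vehicle mouse. Mouse 3 was below every STAM-vehicle mouse with these normalized values, though not with counts scaled to library size alone. The log2 fold change of Chac1 was 1.00 (-0.14 to 2.15, adjusted p = 0.642), and 1.35 (adjusted p = 0.129) without mouse 3. Xbp1 and Chac1 were thus both highest in mice 1 and 4. Asns was at 12.1, 13.7, 8.54 and 18.4 CPM (0.41, -0.23 to 1.05, adjusted p = 0.778), and Ddit3 at 14.2, 11.1, 22.6 and 7.67 CPM (-0.22, -0.79 to 0.34, adjusted p = 0.882). Without mouse 3, Ddit3 was at -0.55, Atf3 at -0.68, Atf4 at -0.06, Trib3 at 0.55 and Asns at 0.58. The adjusted p of these values was 0.190 to 0.733. Between mice with the same lane number, 4, 6 and 2 of the 10 genes were higher in the STAM-I-BET151 mouse in lanes 2, 6 and 7. The last lane was that of STAM-I-BET151 mouse 3.

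None of the 125 pathway genes passed under I-BET151 with edgeR, and 12 (9.6%) had an unadjusted p under 0.05, against 8.68% of all genes. DESeq2 called 1 of the 125 lower, against 0.962% of all genes with an adjusted p. This comparison shares its STAM-vehicle mice with the first, so a gene that read high in those mice is set against the same values here. The lowest p of the chaperones belonged to Hyou1 and Creld2, and neither passed. Hyou1 was at 178 ± 41.7 CPM against 251 ± 15.4 CPM in STAM-vehicle mice (log2 -0.49, adjusted p = 0.401). Creld2 was at 38.3 ± 9.19 CPM against 57.4 ± 2.35 CPM (-0.58, adjusted p = 0.230). Syvn1, the ubiquitin ligase of ER-associated degradation, was at 109 ± 12.5 CPM against 154 ± 5.22 CPM (-0.50, adjusted p = 0.145), and Derl2, of the same machinery, at 61.1 ± 2.46 against 72.2 ± 7.18 CPM (-0.24, adjusted p = 0.553). Without mouse 3, 2 of the 125 (1.6%) were called, Creld2 (log2 -0.43, adjusted p = 0.0735) and Syvn1 (-0.58, adjusted p = 0.00760), against 2.38% of all genes in that fit. The median of the 18 chaperones was -0.20 with mouse 3 and 0.05 without it.

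Among targets of ATF4, the lowest p belonged to Pycr1, of proline synthesis (log2 0.89, adjusted p = 0.337), and Slc6a9, a glycine transporter (0.62, adjusted p = 0.354). Eif2ak4, the amino acid sensing kinase GCN2 (0.41, adjusted p = 0.330), and Ppp1r15b, a subunit of the eIF2 alpha phosphatase (-0.27, adjusted p = 0.543), led the eIF2 list. In the other lists the lowest p belonged to Jdp2 (-0.65, adjusted p = 0.417) and Nupr1 (0.53, 0.720), Mbtps1 (0.21, 0.600) and Ern1, the gene of IRE1 (0.24, 0.703), Mars (0.17, 0.677) and Sars (0.19, 0.699), Vldlr (0.55, 0.712) and Sesn2 (-0.33, 0.734), and Bax (0.39, 0.380) and Bcl2 (-0.32, 0.768). The medians of these lists lay between -0.10 and 0.15.

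The values of STAM-I-BET151 mouse 3 depended on the scaling, since its normalization factor of 1.61 lowers every gene of that library. With TMM it lay below the other 3 STAM-I-BET151 mice in 7 of the 10 genes and above in 3, against 39.4% and 42.2% of all genes tested. With counts scaled to library size alone it lay below in 3 (Hspa5, Dnajb9 and Chac1), above in 5 and between the others in 2, against 13.4% below and 71.0% above for all genes. Hspa5 (0.363 times the mean of the other 3) and Dnajb9 (0.362 times) were at their lowest of all 12 mice under both scalings. Xbp1 and Herpud1 were at their lowest of the 12 with TMM only. By library size Herpud1 was at 474 CPM in mouse 3, above the 385 to 437 CPM of the other 3, and Xbp1 at 251 CPM lay within their 153 to 303 CPM. Atf4 (1.25 times) and Ddit3 (2.06 times) were at their highest of all 12 under both scalings, and Atf3 was at 1.60 times. Of all 16823 genes tested, 5454 were at their highest of the 12 in that mouse with TMM, and 10457 by library size. Chac1 was at 0.165 times and Asns at 0.581 times the mean of the other 3 with TMM, but by library size Asns lay within the range of the other 3. Trib3 was below the other 3 with TMM and above them by library size. All 18 ER chaperones and folding enzymes were at their lowest of the 12 mice with TMM, with Pdia3, a disulfide isomerase, at 121 CPM against 325 to 450 CPM and Calr, a calcium-binding chaperone, at 342 CPM against 768 to 1131 CPM in the other 3. Of all genes tested, 30.2% were at their lowest of the 12 in that mouse. By library size 6 of the 18 were at their lowest of the 12, against 7.34% of all genes, and 14 were below the other 3 STAM-I-BET151 mice. The part of the library's makeup in these values was not tested.

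**Figure D4:**
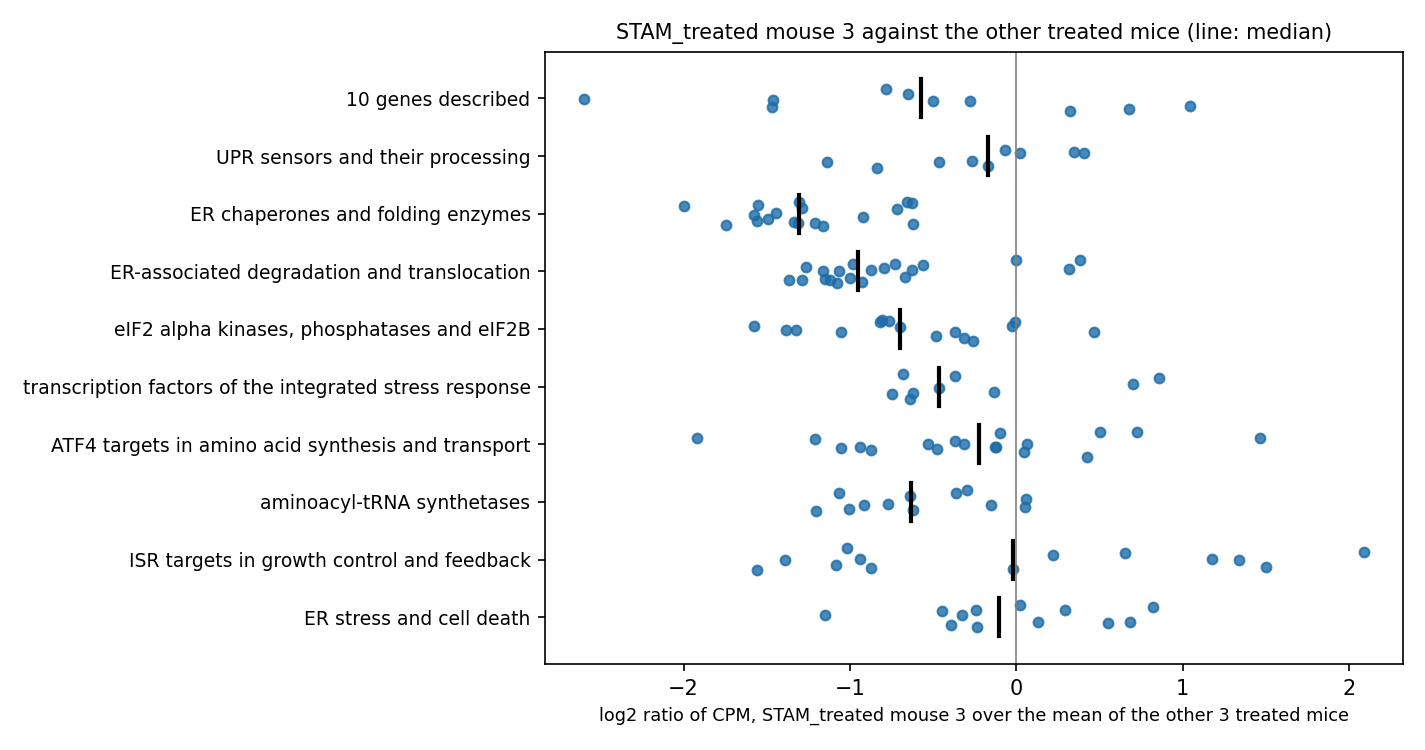
Log2 ratio of CPM in STAM_treated mouse 3 over the mean of the other 3 STAM_treated mice, 1 point per gene, for the 10 genes and the 9 lists, with the median as a black line. The chaperones had the lowest median, at -1.31, and the targets in growth control and feedback one near 0, at -0.02; CPM is TMM-scaled, and scaling to library size would raise every point.

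The third comparison, STAM-I-BET151 against healthy, shares its groups with both others and asked which genes stood apart from healthy liver under treatment. In it 5 of the 10 genes rose and 1 fell at an adjusted p of at most 0.05, against 9.88% and 5.25% of all genes tested. Atf3 (log2 2.26, SE 0.36, adjusted p = 0.00171), Asns (2.15, SE 0.32, adjusted p = 0.00109), Trib3 (1.32, SE 0.21, adjusted p = 0.00177), Chac1 (2.74, SE 0.58, adjusted p = 0.00817) and Atf4 (0.45, SE 0.12, adjusted p = 0.0251) rose. The first 4 passed with each of the 12 mice left out in turn, and Atf4 missed without healthy mouse 2, 3 or 4 (adjusted p up to 0.0807). Herpud1 fell 1.75-fold (log2 -0.81, SE 0.21, adjusted p = 0.0229), with all 4 STAM-I-BET151 mice below the 4 healthy mice, and missed without healthy mouse 2 or 3 or STAM-I-BET151 mouse 1 (adjusted p up to 0.0834). With sequencing lane as a covariate only Asns passed (adjusted p = 0.0436), against 0.505% of all genes. Hspa5 (-0.16, adjusted p = 0.722), Dnajb9 (-0.09, adjusted p = 0.842), Xbp1 (0.39, adjusted p = 0.198) and Ddit3 (0.32, adjusted p = 0.416) did not pass. Without mouse 3, Xbp1 passed as well (0.51, adjusted p = 0.0467). Of the 125 pathway genes 26 (20.8%) rose and 1 fell, and Psat1 (3.88, adjusted p = 0.000442) had the largest fold change of the targets of ATF4. Without mouse 3, 42 (33.6%) rose and 4 (3.2%) fell, against 10.9% and 9.53% of all genes in that fit.

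The genes of a branch were also compared by their variation within groups, as the correlation over the 12 mice of deviations of log2 CPM from the group mean. These values share libraries and are descriptions. Hspa5 and Dnajb9 had the highest of the 45 pairs, r = 0.92, which was 0.48 without STAM-I-BET151 mouse 3. Xbp1 and Chac1 followed at 0.80, and at 0.66 without that mouse. Hspa5 and Ddit3 had the lowest value, -0.75, and -0.27 without that mouse. Atf4 had r = 0.58 with Atf3 and 0.62 with Ddit3 (0.51 and 0.07 without that mouse) and r of -0.04 with Asns, which was 0.59 without it. The 5 tested genes most like Hspa5 by this measure were Dnajc3, an ER co-chaperone (0.99), Rad21 (0.99), Mfsd14b (0.99), Pdia3 (0.99) and F9, coagulation factor IX (0.99), all at 0.92 or more without mouse 3. Those most like Asns were Gldn (0.97), Nbl1 (0.91), Naglu (0.89), Tmem62 (0.87) and Dtnb (0.87), all at 0.84 or more without mouse 3.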

How the data were processed

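The samples were liver RNA of 12 mice, and the sample labels placed 4 mice in each of 3 groups. The authors sequenced stranded mRNA libraries, aligned the reads with STAR 2.5.1b to mm10 (tool version and build per the submitters' processing notes) and deposited whole-number counts of uniquely mapped reads per gene, 1 table per mouse, with no normalization. The study's methods name htseq-count for the counting, while the deposited file labels name featureCounts; the strand setting and the annotation are not given in the sources used here. The study left out 1 STAM-I-BET151 sample because of low gene counts, whereas all 4 were used here. It does not name that sample, so whether it was mouse 3 is not known.

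The tests used edgeR 4.0.16 under R 4.3.3, with DESeq2 1.42.0 as an alternative. Tables and plots were made with Python 3.11.15, pandas 2.3.3, NumPy 2.4.6 and Matplotlib 3.10.9. Gene symbols and exon lengths came from GENCODE M21 (GRCm38), which matched 47310 of 47729 identifiers, and promoter windows from RefSeq (GRCm38.p6). All 12 mice entered 1 edgeR quasi-likelihood fit with TMM normalization and the filterByExpr filter (minimum count 10), and p-values were adjusted over all 16823 genes tested by the Benjamini-Hochberg method. The adjusted p had to be at most 0.05 for STAM-vehicle against healthy and at most 0.1 in the treatment comparison, as in the study. The same 0.05 was chosen for STAM-I-BET151 against healthy, which the study did not test. The SE is the size of the log2 fold change divided by the square root of F, and log2 CPM used a prior count of 2. The fit was tested on simulated counts. TMM centres most genes at no change. Scaling to library size alone would move the differences between groups in mean log2 CPM. The shift is 0.28 for STAM-vehicle against healthy, 0.08 for STAM-I-BET151 against STAM-vehicle and 0.36 for STAM-I-BET151 against healthy. No fit was run with that scaling. A fitted log2 fold change could move by another amount, depending on the gene, since STAM-I-BET151 mouse 3 had a factor of 1.61. The shift of 0.36 would turn the differences of Hspa5 and Dnajb9, both uncalled, positive against healthy. Total counts per mouse were 34711229 to 53365596, and counting error is only part of the spread between mice.

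The 10 genes and the 9 pathway lists were chosen with earlier results of these data known. From each list, in each of the first 2 comparisons, up to 4 genes past the threshold with the smallest p were named, or the 2 with the smallest p where none passed, together with the 5 genes most like Hspa5 and Asns. Other genes named were picked after their values were seen, namely Slc7a1, Wars, Sars, Tars, Pdia3, Calr and the markers. Alternatives were RLE scaling, other filters on low counts, DESeq2, the 2 groups compared alone, a replicate block, the lane number in the file labels, each mouse left out, other thresholds and other scalings of CPM. Same-numbered mice of different groups did not deviate together (mean r from -0.15 to -0.06), so the numbers were not taken as pairs.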

Additional observations from a re-analysis of the deposited data

Results flagged for a closer look

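One value of the 10 genes stood apart from its group by Dixon's test for 4 samples. Xbp1 was at 186 CPM in STAM-vehicle mouse 1, while the other 3 STAM-vehicle mice were at 219 to 220 CPM, so that the gap to the nearest mouse was 0.985 of the whole range, more than the critical value of the test. The test was run on 30 groups of values (10 genes in 3 groups), and chance flags about 1 in 20.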

How the results depend on the processing

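The number of the 10 genes called held within 1.5 times for STAM-I-BET151 against STAM-vehicle (0 under every alternative) and moved for the other comparisons. For STAM-vehicle against healthy, 4 genes were called, and 3 with RLE scaling, 5 at a threshold of 0.1 and 7 with the 2 groups compared alone. The count was 2 with the replicate block (Atf4, adjusted p = 0.103, and Trib3, 0.0636, lost), 0 with sequencing lane as a covariate and 2 to 5 with 1 mouse left out. For STAM-I-BET151 against healthy, 6 were called, and 4 with the replicate block (Atf4, adjusted p = 0.0648, and Herpud1, 0.0619, lost) and 1 with lane. Lane leaves few mice to estimate each group (6 lanes for 12 mice), and the cause of its lower counts was not tested. Over all genes, 1195 were called for STAM-vehicle against healthy, and 2052 at a threshold of 0.1, 3879 with the 2 groups alone, 742 with the replicate block, 37 with lane, 1910 with DESeq2 and 546 to 3779 with 1 mouse left out. For STAM-I-BET151 against STAM-vehicle 59 were called, and 26 at 0.05, 101 without a filter, 8 with the 2 groups alone, 10 with the replicate block, 0 with lane, 268 with DESeq2 and 13 to 403 with 1 mouse left out, the last without STAM-I-BET151 mouse 3. For STAM-I-BET151 against healthy 2546 were called, and 4162 at 0.1, 1262 with the 2 groups alone, 1573 with the replicate block, 85 with lane and 1292 to 3731 with 1 mouse left out. Of the log2 fold changes of single genes, none that passed its test turned, but 5 uncalled ones did. For STAM-I-BET151 against STAM-vehicle, Atf4 was -0.012 without a filter and -0.064 to 0.064 with 1 mouse left out, and Xbp1 -0.081 to 0.22. For STAM-I-BET151 against healthy, with lane, Hspa5 was 0.16, Dnajb9 0.10 and Ddit3 -0.20, and with 1 mouse left out they were -0.30 to 0.076, -0.24 to 0.15 and -0.031 to 0.51.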
